A study of Heliocidaris erythrogramma with 7 samples.

Results

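Pigment cells of the sea urchin *Heliocidaris erythrogramma* (*He*), a species whose non-feeding (lecithotrophic) larva develops rapidly into the adult, were described here at 16, 20, 24 and 30 h post-fertilization (hpf). A pigment cell was any cell with at least 3 unique molecular identifiers (UMIs, each standing for 1 captured transcript) of *mif4* and at least 1 of *pks1*. The levels of these 2 transcripts are therefore given as a description. Members were thus chosen by measured values. The rule found 585 pigment cells among the 12351 cells kept from the 4 libraries, which were 26, 167, 203 and 189 cells in time order. The remaining 11766 cells of the same libraries are called other cells. The series given here held 23156 kept cells of whole wild-type embryos and larvae in 7 libraries between 6 and 30 hpf, with 1 library per time point. Each library held pooled embryos or larvae that were dissociated and fixed in methanol, so that animals cannot be told apart. A difference between time points cannot be told apart from a difference between libraries.

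In sea urchin larvae, pigment cells are a mesodermal cell type that migrates into the ectoderm, carries red granules of echinochrome, a naphthoquinone pigment, and is counted among the immune cells of the larva. In other sea urchin species the transcription factor Gcm switches on the pigment program, and a polyketide synthase (*pks1*), flavin-dependent monooxygenases (*fmo* genes) and a sulfotransferase are needed for or linked to the pigment. Blastocoelar cells are a sister population from the same secondary mesenchyme and express the transcription factor *scl*. For this reason, 758 cells of the same 4 libraries with at least 2 UMIs of *scl*, no UMI of *alx1* and no pigment cell identity were used as a nearer reference and are called *scl* cells.

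The transcripts that define both populations are shown by the first 120 bases of the coding sequences used for the in situ probes of the study, 5′ to 3′, with the start codon in capitals. They belong to *pks1*, which chose the pigment cells, and to *scl*, which chose the nearer reference. Neither stretch contains an in-frame stop in its 40 codons. The libraries tag the 3′ ends of transcripts, so these 5′ bases identify the genes and are not the stretches that were counted.
*pks1*: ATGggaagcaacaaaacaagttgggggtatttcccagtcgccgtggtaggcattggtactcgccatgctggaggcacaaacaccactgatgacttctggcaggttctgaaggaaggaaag
*scl*: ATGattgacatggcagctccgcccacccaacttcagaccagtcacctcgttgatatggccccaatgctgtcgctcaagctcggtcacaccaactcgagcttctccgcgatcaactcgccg

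Depth was close between pigment cells and other cells except at 16 hpf. The median UMI count in time order was 2324.5, 1505, 2244 and 1279 in pigment cells, against 1831, 1486, 2351.5 and 1273 in other cells. In *scl* cells it was 2188.5, 1776, 3098 and 1779.5, higher than in pigment cells from 20 to 30 hpf. The pigment cells held 1060529 UMIs in all, which is 4.84% of the UMIs of these libraries. Any pair of the 4 libraries shared between 0 and 5 cell barcodes. The 16 hpf library was small, with 486 cells. Levels below are UMIs of a feature among 1000000 UMIs of all cells of a class in 1 library (CPM), and since UMIs of a 3′ library do not grow with transcript length, no length scaling was used. The intervals are exact 95% intervals that cover counting error only.

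Pigment cells made up a similar share of the libraries between 12 and 24 hpf and a smaller share at 30 hpf. The 16 hpf library had a share of 5.35% (Clopper-Pearson 95% interval 3.52 to 7.74%), that of 20 hpf 5.43% (4.65 to 6.29%), that of 24 hpf 5.90% (5.14 to 6.74%) and the 30 hpf library 3.54% (3.06 to 4.07%). At 12 hpf, 242 of 4706 cells (5.14%, 4.53 to 5.81%) met the same rule. The intervals of 12 to 24 hpf overlap, and that of 30 hpf lies below those of 12, 20 and 24 hpf. Depth was lowest at 30 hpf, and with every cell thinned to 500 UMIs and a rule of at least 1 UMI of each transcript the shares were 2.66%, 4.28%, 3.78% and 2.50% from 16 to 30 hpf. No test between time points was possible with 1 library each.

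The label was checked against its markers. *mif4*, a gene named for macrophage migration inhibitory factor, had 29114, 43141, 41448 and 39563 CPM in pigment cells from 16 to 30 hpf, against 279, 302, 191 and 362 CPM in other cells. *pks1* had 1597, 2884, 2313 and 1979 CPM in pigment cells, against 7.99, 5.74, 2.55 and 2.78 CPM in other cells. Both are high by construction. The feature that the files name *fmo* was at 0 UMIs in all cells of these 4 libraries and had 1 UMI in the whole series, so this marker did not bear on the label. Other monooxygenase features of the family did mark the cells. *hox11/13c*, a homeobox gene that the rule did not use, was added to the markers here with earlier results of these data known. Its level is therefore a description too and no independent check of the label. It had 3577, 3619, 2266 and 1510 CPM in pigment cells, against 41.1, 14.8, 7.29 and 14.7 CPM in other cells. Of the 585 pigment cells, 583 held at least 1 UMI of *cryz-1*, *sult1c-2*, *mif7* or *hox11/13c*, 4 transcripts that the rule did not use and that were chosen after their values were seen for being high in these cells, so this count is a description. Of other cells, 923 of 11766 (7.84%) held at least 1 such UMI, and of cells with no UMI of *mif4* or *pks1* 4.86% did.

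**Figure D1:**
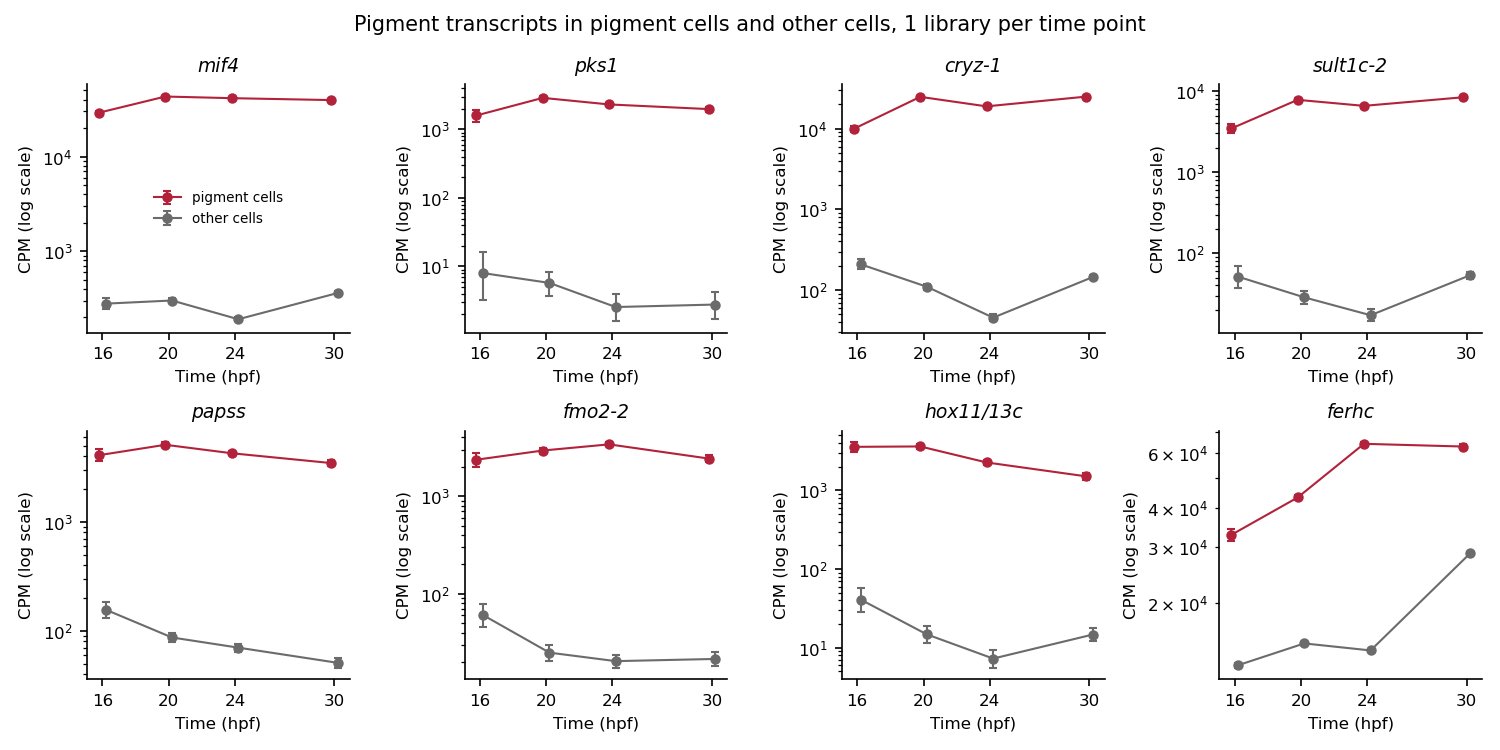
Level in CPM (log scale) against time (hpf) for 8 transcripts, in pigment cells (red) and other cells (grey), with 1 library per time point and exact 95% counting intervals. The red line lies far above the grey one at every time in 7 panels, with *cryz-1* at 9949 to 24898 CPM in pigment cells against 45.5 to 209 CPM in other cells, and closer in the *ferhc* panel, at 32874 to 64014 CPM against 12652 to 28695 CPM.

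The threshold on *mif4* and *pks1* left cells with some of the same transcripts outside. Members with exactly 3 *mif4* UMIs numbered 8, and 4 cells had 2 *mif4* UMIs and at least 1 of *pks1*. The level of *cryz-1* was 861 CPM in the 8 members just inside and 2404 CPM in the 4 cells just outside. A further 260 cells had at least 3 *mif4* UMIs and no *pks1* UMI. These 260 cells averaged 2874 CPM of *cryz-1*, and they held 78.0% of the *cryz-1* UMIs, 80.7% of the *sult1c-2* UMIs and 71.7% of the *hox11/13c* UMIs counted in other cells. In the 10757 cells with no UMI of *mif4* or *pks1*, *cryz-1* was at 14.9 CPM and *hox11/13c* at 3.33 CPM. With other cells limited to those with no UMI of *mif4* or *pks1*, the fitted log2 fold of *cryz-1* was 10.15 in place of 7.53, and that of *hox11/13c* was 9.64 in place of 7.45.

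Members also differed among themselves in how strongly they carried the markers. With at least 5 *mif4* and 2 *pks1* UMIs there were 446 members, which left 139 with fewer. At 16 hpf the 9 members with fewer UMIs had a median of 9 *mif4* UMIs against 95 in the other 17, and at 30 hpf the 57 with fewer had a median of 49 against 53 in the other 132. The 139 members held *scl* and several other transcripts of *scl* cells at higher levels than the 446 did at most times, as given with those genes below.

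Across all features, pigment cells differed widely from other cells. Of 10950 features with at least 50 UMIs, 996 were called higher in pigment cells (9.10%) and 2169 lower (19.8%), where a call needed an adjusted p under 0.05 and at least a 2-fold difference. The test was edgeR's quasi-likelihood test on UMIs summed per library and class, with library as a block and Benjamini-Hochberg adjustment. The labels name no biological replicates, so the libraries of different time points were the units. The spread of each feature was estimated with help from all features, so a small p does not mean that the ratio was alike at all times. For example, *scl* was called lower with a ratio over other cells of 1.42 at 16 hpf and 0.0323 at 30 hpf. Of the calls, 782 of the 996 were higher in all 4 libraries and 2039 of the 2169 were lower in all 4. The median fitted log2 fold over all features was -0.42, and -0.56 with library totals in place of TMM factors, so that a feature at 0 on this scale lay above the median feature. The number of lower calls was 1404 with DESeq2 and 1160 without the 24 hpf library.

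**Figure D2:**
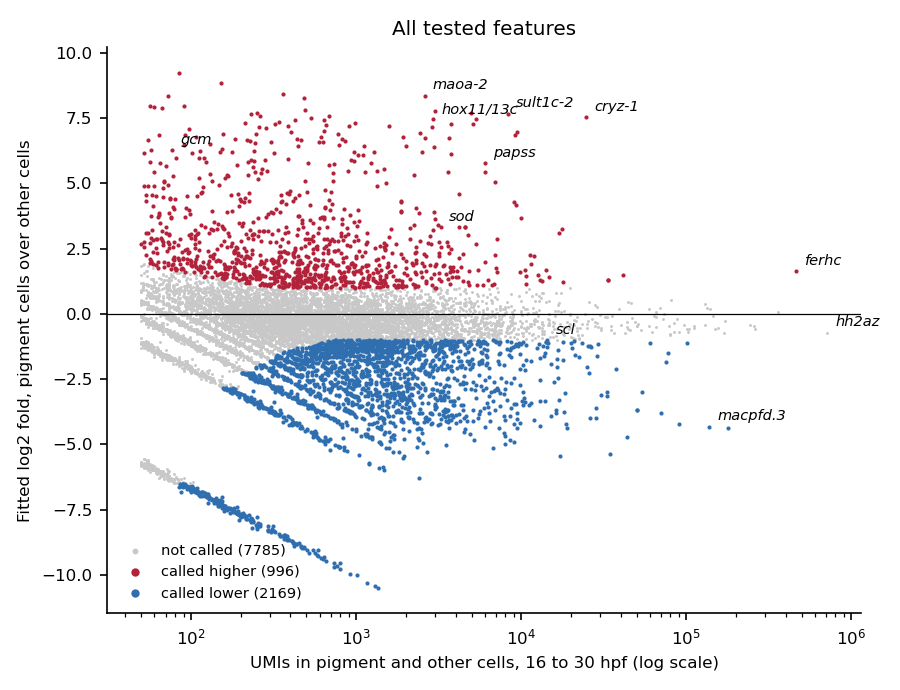
Fitted log2 fold of pigment cells over other cells for each tested feature, against its UMIs in both classes together (log scale). Red points are the 996 features called higher, blue points the 2169 called lower and grey points those not called, and the 213 lower calls with no UMI in pigment cells form the band at the bottom.

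Enzymes named for quinone, sulfate and flavin chemistry were among the most raised features. *cryz-1*, named for zeta-crystallin, a quinone reductase in vertebrates, was the third most abundant feature of the cells, with 22636 UMIs. Its level was 9949, 24748, 18860 and 24898 CPM in pigment cells from 16 to 30 hpf, against 209, 110, 45.5 and 145 CPM in other cells, a log2 fold of 7.53 ± 0.29 (SE, adjusted p = 3.3e-147 by edgeR). *sult1c-2*, a cytosolic sulfotransferase, was at 3460, 7810, 6582 and 8406 CPM in pigment cells, against 51.3, 28.5, 17.1 and 53.4 CPM in other cells, a log2 fold of 7.67 ± 0.30. The groups did not overlap for either gene. *papss*, the synthase that makes the sulfate donor PAPS used by sulfotransferases, was at 4093, 5100, 4265 and 3465 CPM in pigment cells, against 156, 86.8, 70.0 and 50.8 CPM in other cells, a log2 fold of 5.77 ± 0.28. With cells thinned to 500 UMIs, *sult1c-2* was detected in 91.0% of 576 pigment cells (88.3 to 93.2%), against 1.01% of 11400 other cells (0.834 to 1.21%), and *papss* in 82.6% of pigment cells, against 3.04% of other cells.

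The flavin monooxygenase and sulfotransferase families held several higher members. The UDP-glucuronosyltransferase and cytochrome P450 families had more lower than higher calls, as had all features (9.10% higher and 19.8% lower). Of 7 *fmo* features counted here 4 were higher, and the other 3 were not called. *fmo2-2* was at 2362, 2932, 3392 and 2428 CPM in pigment cells, against 60.5, 25.0, 20.4 and 21.5 CPM in other cells, a log2 fold of 6.74 ± 0.30. *fmo5-1* had a log2 fold of 6.95 ± 0.31. *fmo2-2* sums 6 features, and reads of near-identical copies may be shared within the family, so their split is uncertain. Of 11 sulfotransferases, 4 were higher and 1 lower, and after *sult1c-2* the next by UMIs was *sult1b1* with a log2 fold of 3.91 ± 0.34. Of 19 UDP-glucuronosyltransferases, 2 were higher and 7 lower, and *ugt8-2* alone reached 2762, 1953, 1502 and 1045 CPM in pigment cells, against 63.9, 15.9, 7.29 and 10.5 CPM in other cells. Of 47 cytochrome P450 features, 4 were higher and 14 lower. The GTP cyclohydrolase *gch1-1*, which starts pteridine synthesis in other animals, fell to 49.9, 29.7, 57.6 and 61.0 CPM in pigment cells, against 301, 224, 219 and 201 CPM in other cells, a log2 fold of -2.06 ± 0.31.

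Single genes of iron storage and oxidant defense were also higher in pigment cells, while most tested members of the oxidant defense families were not called. *ferhc*, the ferritin heavy chain that stores iron, was the most abundant feature of pigment cells, with 5.67% of their UMIs against 1.92% of those of other cells, and its log2 fold was 1.65 ± 0.20 (adjusted p = 1.6e-14, edgeR). *sod*, a superoxide dismutase, was at 566, 627, 1210 and 999 CPM in pigment cells, against 59.3, 66.0, 118 and 126 CPM in other cells. *cat*, named for catalase, was at 99.8, 134, 307 and 370 CPM in pigment cells, against 25.1, 21.2, 32.9 and 45.0 CPM in other cells, a log2 fold of 2.99 ± 0.30. Of 14 thioredoxin-family features 2 were higher, beside 9.10% of all features, and *txnl3* had a log2 fold of 1.50 ± 0.23. The other 2 of 3 tested superoxide dismutases were not called, nor were the 3 tested peroxiredoxins and the 5 tested glutathione S-transferases.

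The MIF family showed the same division. *mif5* and *mif7* were higher with log2 folds of 7.29 ± 0.31 and 6.95 ± 0.29, and *mif6* was lower with -1.33 ± 0.49, a call that ended in some settings (adjusted p between 0.0042 and 0.54). *mif5* carries the identifier HER_46924.t1 next to HER_46925.t1 of *mif4*, and reads could be shared between near-identical copies. *mif7* reached 5939, 11496, 7546 and 4952 CPM in pigment cells, against 37.4 to 110 CPM in other cells. *mif1* and *mifl1* were not called.

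The 20 features with the largest folds ranged from 172-fold to 605-fold over other cells and from 56 to 22636 UMIs in pigment cells. A gene name was given in the files for 12 of these, and 8 carry only a model number or are named as hypothetical proteins. Besides *cryz-1*, *sult1c-2* and *hox11/13c* these were *ache-22* (acetylcholinesterase), *maoa-2* (monoamine oxidase), *soat* (sterol O-acyltransferase), the potassium channels *kcnk16* and *kcnk4*, the peptide transporter *slc15a4*, the desaturase *ddesat*, the calcium sensor *calm2* and the ubiquitin ligase *trim2-3*. With *mif4* and *pks1* left out, since the rule used them, *ache-22* had the highest fitted log2 fold of these 20, 9.24 ± 0.55, on 133, 70.5, 74.7 and 76.2 CPM in pigment cells, against 0, 0, 0.122 and 0.139 CPM in other cells, where 2 UMIs were counted in all. *kcnk4* was at 1231, 2212, 2944 and 2611 CPM in pigment cells, against 9.13, 10.6, 7.41 and 21.0 CPM in other cells, and was detected in 70.0% of thinned pigment cells, against 0.465% of thinned other cells. *maoa-2* was at 266, 1355, 3057 and 2428 CPM in pigment cells, against 5.70, 3.09, 6.08 and 10.4 CPM in other cells. The unnamed feature *hypp-1597* was as abundant as these, with 4587 UMIs in pigment cells and detection in 79.9% of thinned pigment cells, against 0.518% of thinned other cells.

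Transporter and vesicle families held a few very high members, and their counts stand beside a background of 9.10% called higher and 19.8% called lower. Of 48 ABC transporters, 11 were higher and 8 lower. *abcg11* had a log2 fold of 7.42 ± 0.35 and *abcc5a1* one of 5.41 ± 0.31. Of 269 solute carriers, 56 were higher and 46 lower, and the median log2 fold of the list was -0.21. The mitochondrial dicarboxylate carrier *slc25a10* was at 1231, 2402, 1948 and 2943 CPM in pigment cells, against 30.8, 27.4, 18.4 and 34.8 CPM in other cells. Of 49 features of the Rab GTPases, which direct vesicle traffic, and their partners, 7 were higher and 7 lower. *rab3*, a regulator of exocytosis in neurons, was at 1264, 1734, 1129 and 843 CPM in pigment cells, against 110, 93.9, 72.1 and 76.3 CPM in other cells, and *rab33* had a log2 fold of 3.93 ± 0.28. Of 14 subunits of the V-ATPase, the pump that acidifies vesicles, 6 were higher, with log2 folds between 1.05 and 2.09, of which *vha26* had 1.95 ± 0.28. Of 8 cathepsins 2 were higher and 1 lower, with *cts2* at a log2 fold of 1.89 ± 0.28. *lamp1* and *npc1* were not called. Of the names starting with *lys*, the 1 tested was *lystr*, which was not called either.

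Of the receptors, single members rose by large factors, and the counts stand beside 9.10% of all features called higher and 19.8% called lower. Of 35 features named *gpr*, 10 were higher and 6 lower, and *gpr133l-2*, an adhesion receptor, reached 527, 753 and 1075 CPM in pigment cells from 20 to 30 hpf, against 10.8, 9.97 and 12.6 CPM in other cells. 2 of these 10 were the receptor kinases *gprk2* and *gprk3*. Of 4 frizzled receptors, which bind Wnt ligands, 3 were called lower. Of 10 features with name prefixes of growth factor receptors 2 were lower, a share close to the 19.8% of all features. The prefixes also took *fgfr1op2l* and *tgfbrap1-1*, partner proteins of receptors by name, which were not called. Of 21 tested features named for Notch or Delta, 10 were lower and the others were not called.

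Most tested members of the immune families were not called against other cells. The counts against other cells below stand beside 9.10% of all features called higher and 19.8% called lower. Of 121 scavenger receptor (SRCR) names 50 were at 0 in pigment cells, and of the 46 tested 4 were higher and 1 lower. *srcr71* was at 1231, 1110, 785 and 465 CPM in pigment cells, against 30.8, 9.50, 11.7 and 9.71 CPM in other cells, a log2 fold of 6.08 ± 0.31. *srcr142* had a log2 fold of 2.74 ± 0.28. Of 56 NLR features 8 were higher and 1 lower, with log2 folds from 1.08 to 2.14 for the higher ones, and of 7 tested Toll-like receptors 1 was lower. Of the factors of the C/EBP, NF-κB, Rel and IRF families 2 of 9 were higher, *cebpal* with a log2 fold of 2.35 ± 0.27 and *nfkbizl*, and 1 was lower, *irf*, on 2 UMIs in pigment cells. Of 7 perforin-like MACPF features 1 was higher and 2 lower. *macpfd.3* was at 83.2, 85.4, 226 and 995 CPM in pigment cells, against 2454, 3353, 5741 and 9998 CPM in other cells. With *scl* cells as the reference, 3 of 14 SRCR features were higher and 6 lower, beside 15.2% and 13.8% of all features. Of 25 NLR features 3 were higher and 3 lower there. *srcr71* and *cebpal* stayed higher over *scl* cells, with log2 folds of 4.61 and 1.74, and *nfkbizl* was not called (adjusted p = 0.53, edgeR).

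Genes of the known pigment regulatory network moved both ways. Of 12 listed pigment regulators counted here, 4 were higher and 5 lower, beside 9.10% and 19.8% of all features. *gcm*, the activator of the pigment program, was at 83.2, 74.2, 57.6 and 34.3 CPM in pigment cells, against 1.14, 0.221, 0.608 and 1.25 CPM in other cells, a log2 fold of 6.27 ± 0.50 (adjusted p = 4.5e-34, edgeR). It rested on 61 UMIs in pigment cells and was detected in 9.57% of them, against 0.119% of other cells, or in 2.26% against 0.00877% with cells thinned to 500 UMIs. *z166*, a zinc finger gene, was at 848, 568, 702 and 377 CPM in pigment cells, against 30.8, 48.1, 108 and 67.4 CPM in other cells. *mitf*, the master factor of vertebrate melanocytes, had a log2 fold of 1.86 ± 0.29 and *nfe2* one of 1.99 ± 0.34, a call that ended in at least 1 alternative (adjusted p up to 0.058). *gatae*, *foxn2/3* and *id* were not called. *gatae* was at 83.2, 48.3, 23.5 and 3.81 CPM in pigment cells, against 61.6, 64.9, 44.6 and 21.2 CPM in other cells. *notch*, *delta*, *suh*, *runt1* and *ets1/2* were lower, with log2 folds between -2.82 and -1.10. In pigment cells they had only 21, 2, 12, 39 and 14 UMIs in that order. A factor outside these lists, the homeobox gene *hlx*, was picked after its values were seen, at 699, 479, 597 and 945 CPM in pigment cells, against 10.3, 5.52, 3.77 and 13.5 CPM in other cells.

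Of 20 regulators of other mesoderm, 8 were lower and 3 higher, beside 19.8% and 9.10% of all features. *alx1*, the skeletogenic factor, had 1 UMI in pigment cells, against 562 in other cells, and *soxe* and *foxy* of the gut and coelomic pouch had 0 UMIs. *gatac* fell to 83.2, 7.42, 0 and 0 CPM in pigment cells, against 151, 56.1, 39.4 and 36.4 CPM in other cells. Those called higher were *ese*, *snail* and *tgif*. *snail* was at 0, 37.1, 19.2 and 34.3 CPM in pigment cells, against 1.14, 1.77, 2.07 and 3.05 CPM in other cells, on 28 UMIs. *ese* was at 1065, 223, 201 and 133 CPM in pigment cells, against 291, 106, 68.8 and 22.9 CPM in other cells, and its call ended in at least 1 alternative (adjusted p up to 0.077), as did that of *tgif* (up to 0.058).

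**Figure D3:**
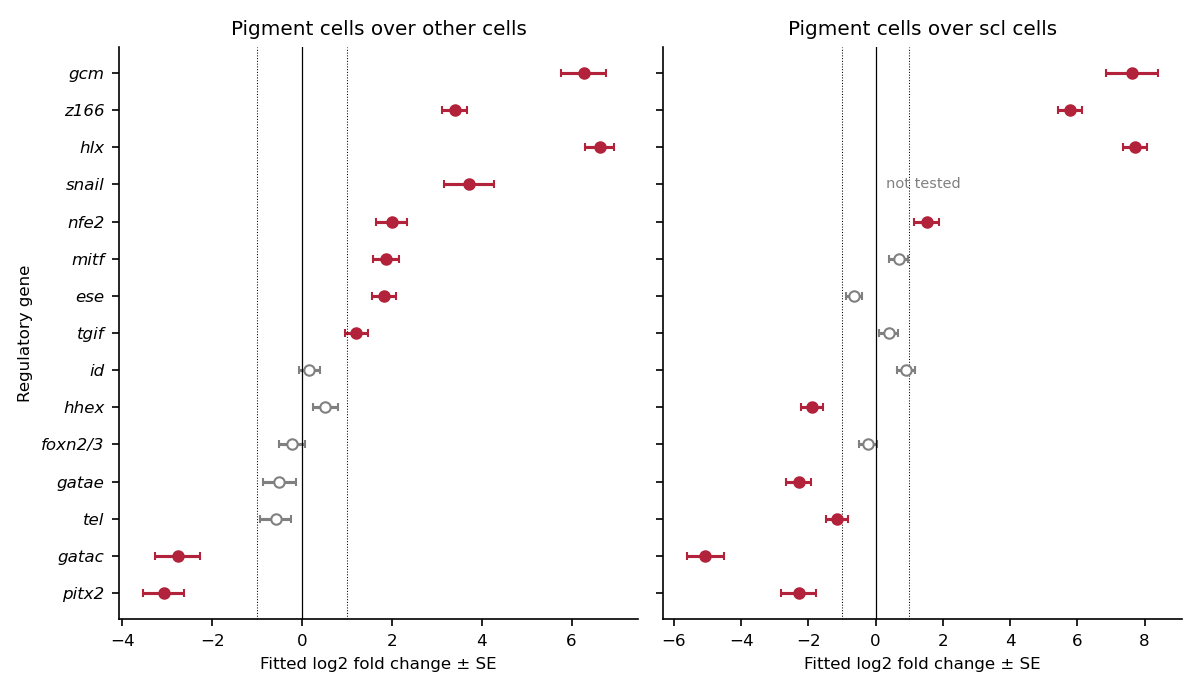
Fitted log2 fold ± SE of regulators in pigment cells over other cells (left) and over *scl* cells (right). Filled red points passed an adjusted p of 0.05 and 2-fold (dotted lines), open points did not, and *snail* had too few UMIs for the right panel; *gcm*, *z166* and *hlx* lie right of both thresholds in both panels.

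The features that were lowest in pigment cells included homeobox and zinc finger genes, the named features *egfia-1* and *st6galnac4-3* and unnamed features. The 10 lowest, each with at least 500 UMIs in other cells, had 0 UMIs in all 585 pigment cells. Set against a floor of 3 counts over the 4 libraries, *emx*, a homeobox gene, was at least 23.9-fold lower, *zic-1*, a zinc finger gene, at least 22.8-fold lower and *eve*, a homeobox gene, at least 13.5-fold lower. *lbx* was at least 11.8-fold lower, on 1.14, 1.77, 34.8 and 70.3 CPM in other cells. Of 19 features in the laminin and collagen list, 9 were lower and the others were not called, beside 19.8% of all features called lower. The list's name prefix also took *lamp1* and *lamp5l*, lysosomal proteins by name, and *lamp5l* was among the 9. *lamg1*, a laminin gamma chain, was at 66.5, 52.0, 61.9 and 83.9 CPM in pigment cells, against 504, 471, 463 and 465 CPM in other cells. Of 17 metalloproteases and their inhibitors 1 was higher and 6 lower, beside 9.10% and 19.8% of all features.

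Marker lists of other cell types were low in pigment cells with some exceptions. The 4 animal pole markers summed to between 46.9 and 116 CPM in pigment cells, against 867 to 1834 CPM in other cells, and all 4 were called lower. The 6 larval ectoderm markers summed to between 64.8 and 111 CPM in pigment cells, against 688 to 1751 CPM in other cells. The 4 skeletal markers summed to between 0 and 7.62 CPM in pigment cells, against 5.70 to 76.6 CPM in other cells, and *sm50* was at 0. The neural list did not separate the classes, with 5171 to 7021 CPM in pigment cells and 4153 to 6624 CPM in other cells, and *calml1* carried nearly all of it. The 4 putative rudiment ectoderm markers overlapped too, at 122 to 233 CPM in pigment cells against 150 to 399 CPM in other cells. Of these, 2 were called lower and *giant* was called higher, a call that ended in at least 1 alternative (adjusted p up to 0.68). Of 3 undifferentiated markers 0 were called, and of 4 early ectoderm markers 1 was called lower. The 6 early mesoderm markers summed to between 259 and 5490 CPM in pigment cells, against 763 to 3324 CPM in other cells, and the 4 blastocoelar markers to between 713 and 5806 CPM, against 2227 to 3031 CPM. Over the 4 libraries together no marker of these last lists was at 0 in pigment cells, but *gatac* was at 0 at 24 and 30 hpf.

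Blastocoelar transcripts were mostly at higher levels in the members with few marker UMIs. *scl* was at 3610, 1025, 109 and 15.2 CPM in pigment cells, against 2540, 1142, 361 and 473 CPM in other cells. At 16 hpf, 188 of its 217 UMIs were in the 9 members below 5 *mif4* or 2 *pks1* UMIs, so that *scl* was at 8549 CPM in these and 761 CPM in the other 17 cells. In the 446 members with more marker UMIs it was at 761, 639, 15.3 and 10.5 CPM from 16 to 30 hpf. *scl* was called lower (adjusted p = 0.00097, edgeR), with a fitted log2 fold between -2.53 and -0.04 and an adjusted p up to 0.99 over the alternatives. The blastocoelar effector gene summed from HER_22243.t1 to HER_22246.t1 and HER_40156.t1 was at 848, 1696, 1312 and 408 CPM in pigment cells, against 179, 1144, 1681 and 1026 CPM in other cells. In the 446 members it was at 944, 926, 336 and 235 CPM, against 682, 4818, 6408 and 872 CPM in the 139 members. *astacin4*, a protease of the same list, was at 787, 565, 465 and 225 CPM in the 446 members from 16 to 30 hpf, against 2228, 2418, 3423 and 450 CPM in the 139 members. *irf4* had 1 UMI in the 446 members, at 20 hpf. Removing the cells with the highest doublet scores, 0.8% per 1000 cells, took 5.13% of pigment cells and 3.16% of other cells. The part of doublets in these levels was not tested.

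Compared with *scl* cells, listed pigment regulators were called in both directions and most tested regulators of other mesoderm were lower. Of 5429 features tested, 824 were called higher (15.2%) and 748 lower (13.8%), of which 638 and 637 had the same direction in all 4 libraries. With library totals in place of TMM factors the split was 641 higher and 1206 lower, and the median log2 fold was -0.39 in place of -0.07. Without the 24 hpf library, 477 were higher and 349 lower. The 5 features with the largest folds were *maoa-2*, *hypp-1597*, *slc10a2-12*, *her-2460.t1* and *soat*. *slc10a2-12*, a bile acid-type transporter by name, *her-2460.t1* and *soat* had no UMI in *scl* cells. *maoa-2* had 0 CPM in *scl* cells at 16, 20 and 24 hpf and 2.49 CPM at 30 hpf.

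Listed pigment regulators moved both ways against *scl* cells too, where 15.2% of all features were called higher and 13.8% lower. Of 11 counted here, 3 were higher (*gcm*, *z166* and *nfe2*) and 4 lower (*gatae*, *ets1/2*, *notch* and *runt1*). *z166* had a log2 fold of 5.79 ± 0.36 over *scl* cells, while *gcm* had no UMI in *scl* cells of the 4 libraries. *gatae* fell by 2.29 ± 0.38, *gatac* by 5.07 ± 0.55 and *hhex* by 1.88 ± 0.33 on the log2 scale. The call of *hhex* ended in at least 1 alternative (adjusted p up to 0.061). *hhex* was at 582, 141, 134 and 38.1 CPM in pigment cells, against 1169, 696, 538 and 531 CPM in *scl* cells. Of the 10 tested regulators of other mesoderm, 7 were lower and the others were not called, with *scl* itself left out of the calls because it chose the reference. *mitf*, *ese* and *tgif*, which were called higher against other cells, were not called against *scl* cells (adjusted p = 0.074, 0.053 and 0.33 in edgeR). Of the V-ATPase features 2 of 13 were higher and 2 lower, shares close to those of all features. Of the Rab features 7 of 32 were higher and 3 lower. *rab3* was 1264, 1734, 1129 and 843 CPM in pigment cells, against 17.2, 24.7, 26.2 and 20.0 CPM in *scl* cells.

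Cell cycle genes were set against both references. Against other cells 1 of 27 tested features of replication and division was higher and 2 were lower. The shares over all features were 9.10% and 19.8%. The 1 higher was *orctl3*, whose prefix matches the origin recognition complex but which is named for an organic cation transporter. Of 19 features tested against *scl* cells, with *orctl3* again among those tested, 8 were higher, beside a background of 15.2%. These included *pcna*, the replication clamp, with a log2 fold of 1.99, *rrm1*, a ribonucleotide reductase subunit, with 1.59 ± 0.40, and *mcm2-1* and *mcm3-1* of the replicative helicase. The calls of *rrm1* and *mcm3-1* ended in at least 1 alternative (adjusted p up to 0.16 and 0.40). Of 60 ribosomal protein features 2 were lower against other cells and the others were not called, with a list median of -0.48, close to the median of all features.

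Within pigment cells, the level at 30 hpf was divided by the level at 20 hpf for the 1467 features with at least 50 UMIs in both sums together. Of these, 11.3% were at least 2-fold higher and 15.7% at least 2-fold lower at 30 hpf, and the median ratio was 0.959. Of the features that passed 2-fold, 26 of the higher and 63 of the 230 lower ones also did so in other cells. The 20 features with the largest folds over other cells mostly held their level, since 2 fell and 0 rose by 2-fold or more, 15 lay in between and 3 had too few UMIs. *cryz-1* had a ratio of 1.01 (0.972 to 1.04), against 1.32 (1.18 to 1.47) in other cells. *hox11/13c* had a ratio of 0.417 (0.370 to 0.469), against 0.994 (0.725 to 1.37) in other cells, and *mif7* one of 0.431 (0.403 to 0.460), against 0.669 (0.575 to 0.779) in other cells.

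The 5 deepest falls were those of *scl*, *doc2lb*, *npnt*, *klhl29-2* and *egfi*. *scl* had a ratio of 0.0149 (0.00403 to 0.0385), against 0.414 (0.396 to 0.432) in other cells. *doc2lb*, a calcium-dependent exocytosis gene by name, was at 632, 367, 32.0 and 15.2 CPM in pigment cells from 16 to 30 hpf, against 11.4, 17.7, 18.2 and 20.5 CPM in other cells. *klhl29-2* was at 815, 664, 277 and 38.1 CPM in pigment cells, against 83.3, 54.8, 54.9 and 45.4 CPM in other cells, so that both genes stood above other cells at 16 and 20 hpf and near them at 30 hpf. *npnt*, nephronectin, a matrix protein, fell to 7.62 CPM at 30 hpf on 2 UMIs, and at 20 hpf 25 of its 48 UMIs lay in the 40 members with few marker UMIs. Among solute carriers *slc35f3l* was at 1564, 1437, 489 and 126 CPM in pigment cells, against 35.4, 11.3, 6.32 and 6.80 CPM in other cells.

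The 5 largest rises were those of *lrp8*, *dnamth*, *lrp6l-1*, *tyms* and *eh2*. *lrp8*, a lipoprotein receptor, was at 0, 3.71, 132 and 194 CPM in pigment cells, against 36.5, 38.2, 39.3 and 29.7 CPM in other cells. *dnamth*, named for a DNA methyltransferase, had a ratio of 42.1 (14.1 to 207), against 1.94 (1.80 to 2.08) in other cells. *tyms*, thymidylate synthase, which makes the DNA building block dTMP, was at 83.2, 66.8, 235 and 1106 CPM in pigment cells, against 154, 373, 314 and 714 CPM in other cells. *rrm1* moved with it, with 16.6, 63.1, 175 and 732 CPM in pigment cells, against 117, 214, 173 and 355 CPM in other cells. Both genes were below other cells at 20 hpf and above them at 30 hpf. Of the 6 replication and division features with enough UMIs, 4 were at least 2-fold higher at 30 hpf and 0 lower. The redox gene *nxn-1* (nucleoredoxin), picked after its values were seen, was at 715, 1347, 5982 and 6153 CPM in pigment cells, against 68.4, 85.5, 212 and 286 CPM in other cells, and rose in both classes. *tgif* fell in pigment cells, with 2312, 1759, 1312 and 671 CPM in time order. In other cells it did not fall with them, at 345, 710, 682 and 1016 CPM, and was highest at 30 hpf.

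**Figure D4:**
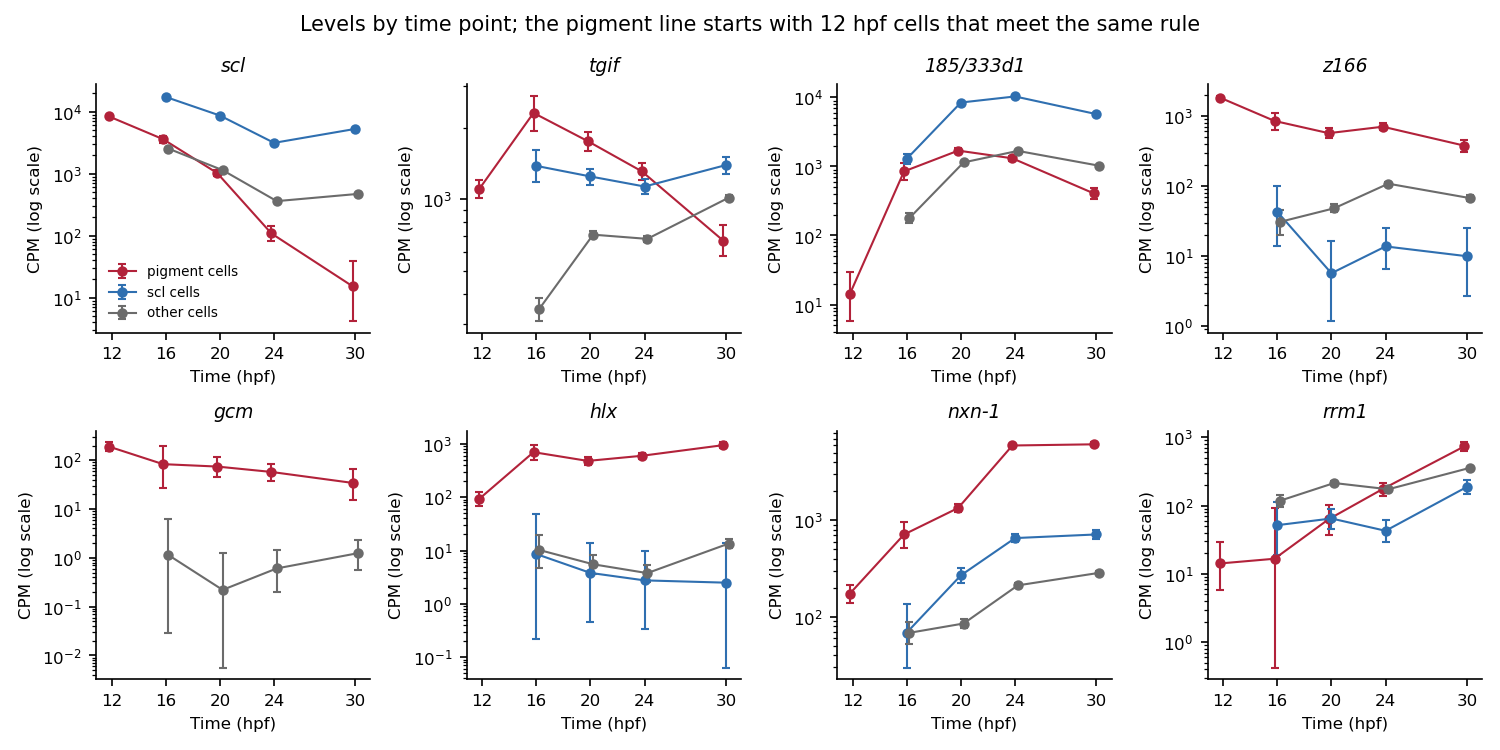
Level in CPM (log scale) against time (hpf) in pigment cells (red), *scl* cells (blue) and other cells (grey), with exact 95% counting intervals, where the first red point is the 242 cells at 12 hpf that meet the same rule; points at 0 are not drawn. In pigment cells *scl* ends at 15.2 CPM, *tgif* at 671 CPM and *gcm* at 34.3 CPM, while *nxn-1* ends at 6153 CPM and *rrm1* at 732 CPM.

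**Figure D5:**
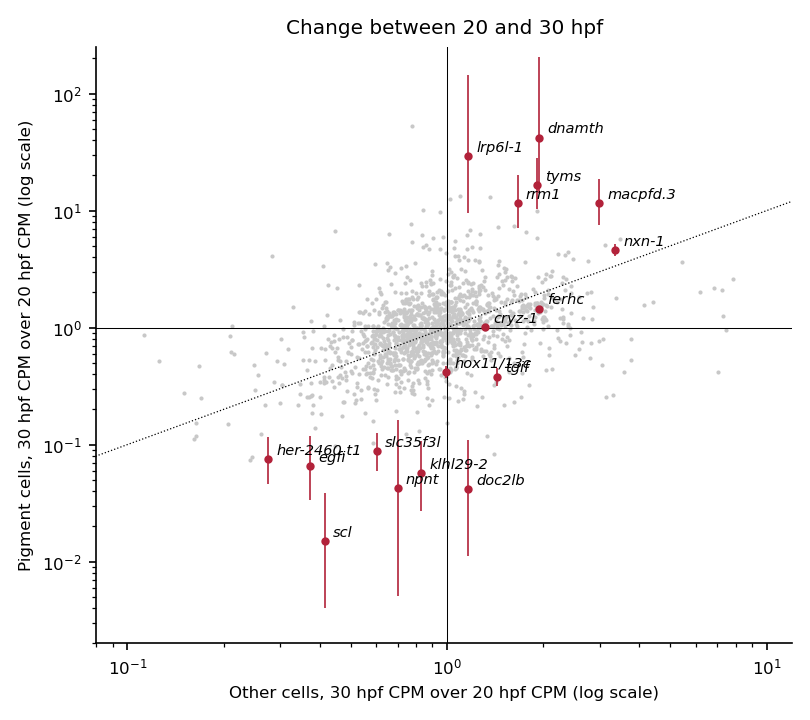
Ratio of the level at 30 hpf over 20 hpf in pigment cells (vertical, log scale) against the same ratio in other cells (horizontal, log scale), 1 point per feature with bars for exact 95% intervals of named genes. On the dotted line both ratios are equal, and *dnamth*, *lrp6l-1*, *tyms* and *rrm1* lie far above it and *scl*, *doc2lb* and *klhl29-2* far below it.

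The 242 cells of 12 hpf that met the rule held part of the later profile. *mif4* was at 13254 CPM and *cryz-1* at 6442 CPM, both under the 29114 and 9949 CPM of 16 hpf. *hox11/13c*, *gcm* and *z166* were at 5131, 191 and 1816 CPM, higher than at any later time, while *maoa-2* was at 14.2 CPM and *hlx* at 93.3 CPM, lower than at any later time. Of these 242 cells 184 (76.0%) had at least 2 *scl* UMIs, and from 16 to 30 hpf 7 of 26, 22 of 167, 7 of 203 and 0 of 189 pigment cells did, where at 30 hpf 3 counts allow a share of up to 1.59% of cells with that many UMIs, which does not limit the share that expresses the gene. At least 1 *scl* UMI was found in 4 of the 189.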

How the data were processed

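Single-cell libraries of whole *He* embryos and larvae at 6, 9, 12, 16, 20, 24 and 30 hpf (Chromium 3′ chemistry) were used. The authors deposited, for each library, raw UMI counts per feature and cell, made with Cell Ranger 3.1.0, without normalization, and the submitters' processing notes also name Seurat 4.0. The genome build is not given in the sources used here. Gene names were taken from the files, lower-cased and without their species prefix, and features of the same name were summed. A cell was kept if its genes numbered over 200 and under 4000 and its UMIs under 10000, and from 16 to 30 hpf 486, 3078, 3441 and 5346 cells passed, with 936734 to 8696256 UMIs per library. Scrublet (scanpy 1.11.5) gave doublet scores, but no cell was removed by its calls, which reached only 0.0975% at 20 hpf.

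UMIs were summed per library and class and tested with edgeR 4.0.16 (R 4.3.3) with TMM factors and library as a block, for features with at least 50 UMIs. Each class has 1 sum per library, so the 8 sums leave 3 residual degrees of freedom. SE is the log2 fold divided by the square root of the F statistic. Shares have Clopper-Pearson intervals, levels Poisson intervals and time ratios exact conditional binomial intervals, all at 95%. The fit was tested on simulated data with known fold changes. These counts were drawn with the same spread for all features and the same fold in every library. Real features differ in both, so the rates below may not hold for them. Against other cells it called 3 of 50 features changed 2-fold, 30 of 50 changed 4-fold and 43 of 50 changed 16-fold. Against *scl* cells it called 12, 44 and 49 of 50. Of unchanged features 5 of 10752 and 0 of 5232 were called. A feature that was not called may therefore still differ by 2-fold or more. Python 3.11.15 and matplotlib 3.10.9 were used.

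The members and gene lists were chosen with earlier results of these data known. The features named are list genes (up to 6 per list by UMIs in pigment cells, with the members that passed the test counted), the 20 highest, the 10 lowest, the 5 highest over *scl* cells, the 5 largest rises and falls between 20 and 30 hpf, and the 10 most abundant, plus genes said to be picked after their values were seen. Some list genes are not reported here and are left out of the list counts. Alternatives were library totals, DESeq2 1.42.0, other UMI minima (20, 200 and none), no library block, leaving out each library, other rules for pigment, other and *scl* cells, cells with over 500 genes, removal of high doublet scores, cells thinned to 500 UMIs and features not summed.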

Additional observations from a re-analysis of the deposited data

Results flagged for a closer look

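For 14 named genes the ratio of pigment cells over other cells lay on opposite sides of 1 in different libraries, with exact intervals that leave out 1, at least 5-fold apart and on at least 50 UMIs in pigment cells. With 1 library per time point these differences were not tested. The ratio was above 1 at 16 hpf and below 1 at 30 hpf for the blastocoelar effector gene summed from HER_22243.t1 to HER_22246.t1 and HER_40156.t1 (4.74 and 0.398), *astacin4* (4.33 and 0.395), *cyp2l2* (2.98 and 0.210), *hhex* (3.27 and 0.441), *mmp18/19l5* (2.22 and 0.242), *npnt* (2.43 and 0.0883), *scl* (1.42 and 0.0323), *tgif* (6.71 and 0.660) and *txndc* (2.51 and 0.452). It was above 1 at 20 hpf and below 1 at 30 hpf for *giant* (4.40 and 0.724) and *srcr177* (1.51 and 0.192). It was above 1 at 30 hpf and below 1 earlier for *lrp8* (6.55, and 0.0972 at 20 hpf), *rrm1* (2.06, and 0.142 at 16 hpf) and *tyms* (1.55, and 0.179 at 20 hpf). In the 17 cells of 16 hpf with at least 5 *mif4* and 2 *pks1* UMIs, *tgif* was at 2755 CPM and the effector gene at 944 CPM, against 345 and 179 CPM in other cells, while *scl* was at 761 CPM against 2540 CPM and *txndc* at 394 CPM against 463 CPM. In those 17 cells *mmp18/19l5* was at 262 CPM, *cyp2l2* at 78.7 CPM and *npnt* at 131 CPM, against 322, 112 and 137 CPM in other cells. The part of the 9 cells with fewer marker UMIs in these ratios was not tested further.

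In libraries that the comparisons did not use, 1 cell at 6 hpf and 3 cells at 9 hpf met the rule. The cell at 6 hpf had 12 *mif4* UMIs and 7 *cryz-1* UMIs among 1035 UMIs, and the 3 cells at 9 hpf had 3, 10 and 5 *mif4* UMIs among 5304, 3492 and 3976 UMIs.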

How the results depend on the processing

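The number of features called moved with thinning, the tool and the library of 24 hpf. With each cell thinned to 500 UMIs, 592 of 8168 tested features were higher and 1246 lower against other cells, and 397 and 328 of 1920 against *scl* cells, so fewer were also tested. Against other cells DESeq2 gave 1404 lower. Against *scl* cells, library totals gave 1206 lower, a minimum of 200 UMIs gave 370 higher and 335 lower, and no library block gave 482 lower. Leaving out each library in turn gave 742 to 1123 higher and 1160 to 1749 lower against other cells, and 477 to 794 higher and 349 to 884 lower against *scl* cells, with the lowest counts all without 24 hpf, where fewer features were tested. The share of pigment cells at 16, 20, 24 and 30 hpf was 3.50%, 4.13%, 4.94% and 2.47% with at least 5 *mif4* and 2 *pks1* UMIs, 3.50%, 4.19%, 4.999% and 2.51% with at least 2 *pks1* UMIs alone, and 2.66%, 4.28%, 3.78% and 2.50% with thinned cells. The blastocoelar effector gene summed from HER_22243.t1 to HER_22246.t1 and HER_40156.t1 turned to a log2 fold of -0.75 with at least 5 *mif4* and 2 *pks1* UMIs, *irf4* to -3.09 and *txndc* to -1.13, and with at least 2 *pks1* UMIs alone *irf4* turned to -3.12 and *txndc* to -0.96. The cause was not tested, beyond the levels of members with few and many marker UMIs given above. For the single genes, 7397 values under alternatives kept direction and side of the threshold, 402 lost the call, 139 gained it and 311 uncalled values moved. The reported fit already ties both classes of 1 library by a library block, without which 928 were higher and 1832 lower against other cells. No paired analysis was possible because the labels number no replicates that could link libraries beyond that block. Values at 16 hpf rest on 26 cells and 60109 UMIs.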
